A study of Homo sapiens with 49 samples.

Results

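The homeobox genes described here are 66 of the 19775 genes measured on 49 arrays of B-cell lymphoma lines treated with doxorubicin. They were chosen by symbol alone, as the numbered members of the HOX clusters A to D and of the DLX, MSX, sine oculis (SIX2 to SIX6 here), LHX, NKX, PITX and IRX families that have a probe set annotated to 1 gene. The brightest such probe set over the 49 arrays stood for each gene. The set holds 1 HOXA, 10 HOXB, 9 HOXC and 8 HOXD genes, 6 DLX, 2 MSX, 5 sine oculis, 8 LHX, 10 NKX, 2 PITX and 5 IRX genes. Doxorubicin, a chemotherapy drug of the anthracycline class that damages DNA through topoisomerase II, was given to 6 established lines of diffuse large B-cell lymphoma: RIVA, U2932, OCI-Ly7, SU-DHL-5, NU-DHL-1 and FARAGE. Untreated cells gave 6 arrays each at 0, 2 and 12 h and 3 at 48 h (OCI-Ly7, RIVA and U2932). The high dose, 2.5 µg/mL, gave 6 arrays at 2 h and 5 at 12 h, where SU-DHL-5 has no array, and at 48 h the 2 arrays of RIVA and U2932. The low dose, 0.00061 µg/mL, gave 6, 6 and 3 arrays at the same times. A line is represented once at each dose and time, so lines served as replicates, no repeated cultures are labelled, and the p-values measure the spread between lines. The question asked of these genes was which of them, at low level in untreated lymphoma cells, rose at the high dose, in which lines and when.

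Homeobox genes encode transcription factors that bind DNA through a homeodomain. HOX genes lie in clusters and set position along the body axis, whereas DLX, sine oculis, LHX, NKX, PITX and IRX genes pattern the forebrain, face, sense organs, heart, limbs and other tissues of the embryo. Outside these tissues many of them are held silent by Polycomb repression, and mature B cells normally express only some, such as HOXC4.

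Values are log2 intensities of the arrays, on which a difference of 1 is 2-fold. Calls were made with limma at an adjusted p below 0.05, with the line as a block and Benjamini-Hochberg adjustment over all 19775 genes. The level of a gene is its mean over the 6 untreated arrays at 0 h, and the arrays give no detection call, so a low level is not proof that a gene was silent. At 12 h of the high dose the poly-A control RNAs, usually added to total RNA before labelling, read 1.79 higher (SD 0.53, n = 5) than on the untreated arrays, and the hybridization controls 0.66 higher (SD 0.35, n = 5). At 48 h these shifts were 3.24 and 1.45 (n = 2). Scaling the arrays to the poly-A controls moved the median of all genes at 12 h from 0.20 to -1.59, and at 48 h from 0.17 to -3.07. Differences are therefore given relative to the other genes of the array, on the deposited scale, and a rise smaller than the shift of the controls turns negative on their scale. In RNA of whole cultures, more cells expressing a gene and more RNA per cell cannot be told apart.

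In untreated cells most of the 66 genes were at low level. Ranked among all genes by level, 30 lay in the lowest quartile (below 4.08), 25 in the next (up to 5.76), 11 in the third (up to 8.39) and 0 in the highest. The brightest were HOXC4 at 8.08 (SD 0.45, n = 6), PITX1 at 7.51 (SD 2.06), HOXB4 at 7.47, HOXB7 at 7.34 (SD 1.28), HOXC6 at 6.53 (SD 1.48) and HOXC11 at 6.32. PITX1, a gene of hindlimb and pituitary development, ranged widely, with 3.94 as the lowest line (FARAGE) and 9.73 as the highest (SU-DHL-5). HOXC6 ranged from 4.28 in RIVA to 8.16 in SU-DHL-5, and HOXB7 from 5.56 in U2932 to 8.87 in SU-DHL-5. The lines thus differed widely in a few homeobox genes before any drug. B-cell identity genes marked the lines as labelled: all 6 B-cell markers measured lay in the highest quartile, with a median level of 11.

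At 12 h of the high dose 26 of the 66 genes rose and 0 fell (limma; 37 higher and 0 lower at an unadjusted p below 0.05), beside 18.2% of all genes called higher and 14.7% called lower. The median difference of the 66 was 0.47, beside 0.20 for all genes. Of the 26, 7 were at least 2-fold higher, beside 3.15% of all genes: DLX2, SIX4, HOXB7, IRX5, HOXC6, SIX5 and PITX3. Without RIVA 11 members rose (beside 4.41% of all genes), without U2932 14 (5.21%), without OCI-Ly7 15 (5.08%), without FARAGE 18 (9.92%) and without NU-DHL-1 34 (25.4%). On the poly-A scale the sign turned for most, with 1 member called higher (DLX2) and 60 called lower. Beside these, 32 of all genes were called higher and 19106 lower, so the fall on this scale is not particular to the members. On the hybridization scale DLX2, HOXB7, IRX5 and SIX4 were called higher and 3 members lower, beside 206 and 6839 of all genes. DLX2 was thus called higher on each of these scales.

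**Figure D1:**
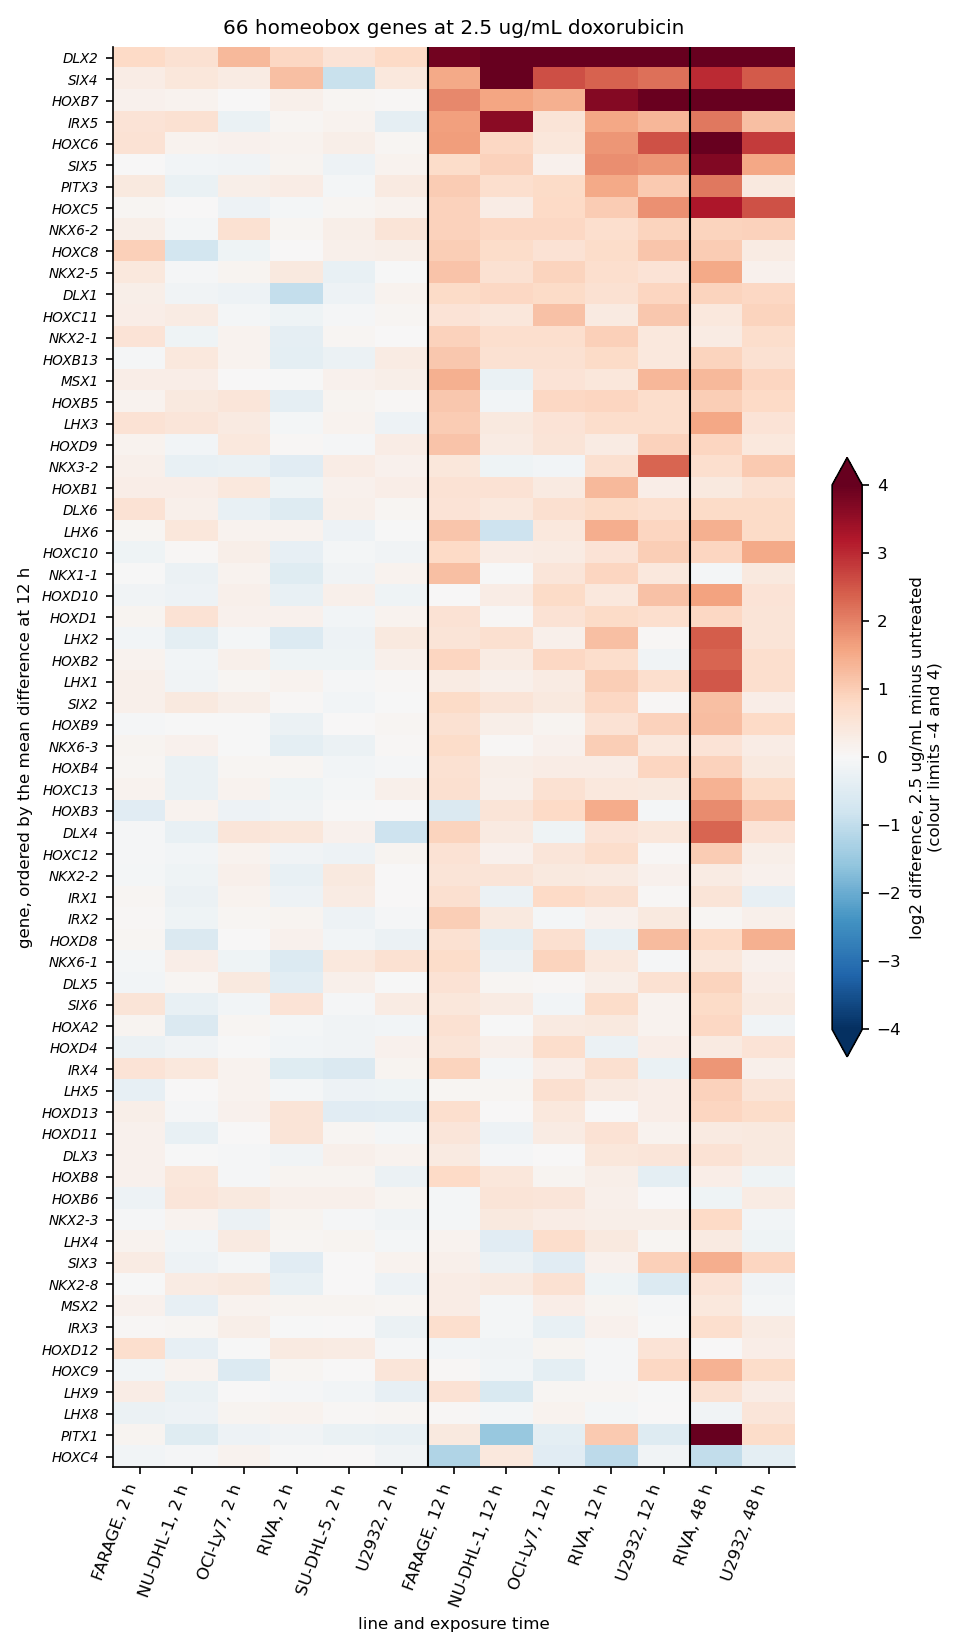
Log2 difference between 2.5 µg/mL and the matched untreated array for all 66 genes (rows, ordered by the mean at 12 h), for each line at 2, 12 and 48 h (columns). Red is higher and blue lower on the deposited scale; DLX2, at the top, is red in every column, and on the poly-A scale 60 of the 66 were called lower at 12 h.

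DLX2, which with its neighbour DLX1 directs the formation of inhibitory neurons of the forebrain, changed most of the 66 at 12 h. Its level at 12 h in untreated cells was 3.37 in FARAGE, 5.22 in NU-DHL-1, 3.28 in OCI-Ly7, 3.93 in RIVA and 3.56 in U2932. At the high dose it was 7.24, 10.11, 7.68, 8.67 and 8.44 in the same lines. Every treated array lay above every untreated one. The difference was 4.55 ± 0.21 (SE, n = 5 lines; limma adjusted p = 0.000286), larger than that of every other gene of like level, taken as genes whose level lies within 0.25. DLX2 was also the only member called at 2 h, where it was higher in 6 of 6 lines by 0.82 ± 0.10 (limma adjusted p = 0.000377), beside 4.03% of all genes called higher and 6.38% lower. At 48 h it went from 3.97 to 10.06 in RIVA and from 3.34 to 8.55 in U2932, a difference of 5.65 (SE 0.50, n = 2; limma adjusted p = 0.000117). DLX2 stayed called on the poly-A scale at 2, 12 and 48 h, with differences of 0.52, 2.77 and 2.41 respectively. Its second probe set showed far less, 0.62 at 12 h and 0.52 at 48 h, and was called at 12 h only.

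DLX1 lies beside DLX2 and rose too. By its brightest probe set the untreated arrays of the 5 lines lay between 4.67 and 4.94 at 12 h and the treated ones between 5.29 and 5.74, with no overlap. The difference was 0.76 ± 0.14 (n = 5; limma adjusted p = 0.00747). A second, dimmer probe set gave larger values. It went from 3.54 to 5.79 in FARAGE, 5.48 to 7.48 in NU-DHL-1, 3.66 to 4.37 in OCI-Ly7, 3.21 to 5.92 in RIVA and 3.71 to 6.05 in U2932. OCI-Ly7 moved least. That difference was 2.00 ± 0.28 (limma over all 41097 probe sets, adjusted p = 0.00315), and it reached 3.63 at 48 h (adjusted p = 0.00254). The gene on the other side of DLX1, METAP1D, fell by 0.96 at 12 h (adjusted p = 0.0137), and ITGA6, beyond DLX2, differed by 0.27 (adjusted p = 0.51). Of the other DLX genes, which pattern the jaws and limbs, DLX6 rose by 0.61 at 12 h and DLX4 by 1.45 at 48 h (2.34 in RIVA, 0.56 in U2932), while DLX3 and DLX5 were not called at 12 or 48 h (0.26 and 0.32 at 12 h).

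The start regions of DLX1 and DLX2 are shown because these adjacent genes moved together in all 5 lines at 12 h and are read from opposite strands. Each is the RefSeq promoter of build GRCh38.p14, from 250 bases before to 50 bases after the start, written along the strand of the gene. Capitals mark the letters CCAAT and the AP-1 motif TGACTCA or TGAGTCA, on either strand (ATTGG is CCAAT read on the other strand). DLX1 is chr2:172085257-172085556 on the plus strand and DLX2 is chr2:172102851-172103150 on the minus strand.
DLX1: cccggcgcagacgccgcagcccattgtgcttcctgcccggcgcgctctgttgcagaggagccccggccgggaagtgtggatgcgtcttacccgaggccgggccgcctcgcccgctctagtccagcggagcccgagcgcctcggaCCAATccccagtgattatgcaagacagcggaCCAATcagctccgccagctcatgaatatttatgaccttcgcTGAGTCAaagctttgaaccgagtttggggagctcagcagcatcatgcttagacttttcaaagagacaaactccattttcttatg
DLX2: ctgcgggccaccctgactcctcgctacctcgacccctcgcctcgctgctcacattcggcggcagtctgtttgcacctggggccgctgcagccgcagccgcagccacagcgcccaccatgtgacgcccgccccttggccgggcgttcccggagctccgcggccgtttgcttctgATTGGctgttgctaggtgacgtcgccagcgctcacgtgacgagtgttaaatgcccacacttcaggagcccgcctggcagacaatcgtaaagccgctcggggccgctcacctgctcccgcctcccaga
The DLX1 window held 2 CCAAT matches and 1 AP-1 match, the latter starting 34 bases before the start. The DLX2 window held 1 CCAAT match, starting 77 bases before the start, and no AP-1 match. Of all 35116 promoters of the table, 34.6% held CCAAT and 4.95% held the AP-1 letters. A match is a description of the letters and not a bound site.

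Sine oculis homeobox genes, named for their fly counterpart that the eye needs, act with EYA co-activators in muscle, ear, kidney and eye. SIX4 rose in every line at 12 h. It went from 3.57 to 5.09 in FARAGE, 4.29 to 8.50 in NU-DHL-1, 5.18 to 7.77 in OCI-Ly7, 7.70 to 10.07 in RIVA and 7.23 to 9.43 in U2932. RIVA and U2932 were high already without the drug, so treated and untreated arrays of different lines overlapped. The difference was 2.58 ± 0.36 (n = 5; limma adjusted p = 0.00332), at percentile 99.7 among genes of like level. It was 2.71 at 48 h (2.98 in RIVA, 2.45 in U2932; adjusted p = 0.0088), beside 2.37 and 2.20 at 12 h in these lines, and on the poly-A scale it was -0.53. A second, dimmer probe set of SIX4 was 0.46 higher at 12 h (limma over probe sets, adjusted p = 0.0252) and 0.31 higher at 48 h without a call. SIX6, the next gene on one side, differed by 0.30 and was not called, and MNAT1 on the other side fell by 1.11 (adjusted p = 0.0103).

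The promoter of SIX4 is shown as that of the member with the second largest difference, chr14:60724302-60724601 on the minus strand, with 1 CCAAT match and no AP-1 match.
SIX4: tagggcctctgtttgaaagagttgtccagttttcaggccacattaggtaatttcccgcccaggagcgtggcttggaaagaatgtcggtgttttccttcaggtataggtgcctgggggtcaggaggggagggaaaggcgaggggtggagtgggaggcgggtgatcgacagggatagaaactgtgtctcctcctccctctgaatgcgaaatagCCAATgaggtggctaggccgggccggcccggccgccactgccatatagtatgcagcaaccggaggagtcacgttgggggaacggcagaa

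SIX5, which lies beside the myotonic dystrophy gene DMPK, rose by 1.10 ± 0.28 at 12 h (limma adjusted p = 0.0236). Its increases were 0.75 in FARAGE, 0.92 in NU-DHL-1, 0.18 in OCI-Ly7, 1.87 in RIVA and 1.77 in U2932. At 48 h it went from 6.13 to 9.83 in RIVA and from 6.17 to 7.72 in U2932, a difference of 2.63 (adjusted p = 0.0158). The 12 h call was lost without RIVA (adjusted p = 0.083) or without U2932 (adjusted p = 0.0807). DMPK itself rose by 1.16 at 12 h (adjusted p = 0.00873) and by 1.98 at 48 h (adjusted p = 0.0276), whereas FBXO46 on the other side fell by 1.44. SIX3, a gene of eye and forebrain, was not called at 12 h (0.13) and rose by 1.15 at 48 h. SIX2 and SIX6 were called at neither time.

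In the HOXB cluster 4 of 10 genes rose at 12 h and 3 at 48 h, beside 18.2% and 5.66% of all genes, and a single gene stood far above its neighbours. HOXB7 went from 6.96 to 8.89 in FARAGE, 7.11 to 8.70 in NU-DHL-1, 9.32 to 10.75 in OCI-Ly7, 6.67 to 10.33 in RIVA and 5.28 to 9.23 in U2932. RIVA and U2932, the lines with the lowest untreated values, gained most. The difference was 2.51 ± 0.42 (n = 5; limma adjusted p = 0.00597), at percentile 99.8 among genes of like level. At 48 h HOXB7 reached 13.3 in RIVA, from 6.39, and 10.92 in U2932, from 5.23. That difference of 6.30 (SE 0.55, n = 2; adjusted p = 0.000117) was the largest of the 66, and it stayed called on the poly-A scale at 3.06. All 3 probe sets of HOXB7 gave like values, 2.51, 2.37 and 1.80 at 12 h and 6.30, 6.17 and 5.41 at 48 h.

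The genes on either side of HOXB7 were not called. HOXB6 differed by 0.23 at 12 h and 0.08 at 48 h, and HOXB8 by 0.24 and 0.05, although a dimmer probe set of HOXB8 was 1.10 higher at 48 h (limma over probe sets, adjusted p = 0.0144). HOXB5 (0.67), HOXB1 (0.62) and HOXB13 (0.69) rose at 12 h and were not called at 48 h. HOXB5 was lower in NU-DHL-1 (-0.12), and the calls of HOXB5 and HOXB1 were lost without any 1 of the other 4 lines. HOXB2 (1.49) and HOXB3 (1.53) were called at 48 h and not at 12 h, with most of the HOXB2 difference in RIVA (2.32) rather than U2932 (0.66). HOXB4 and HOXB9 were called at neither time.

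In the HOXC cluster 6 of 9 genes rose at 12 h and 5 at 48 h, again beside 18.2% and 5.66% of all genes. HOXC6 went from 7.05 to 8.71 in FARAGE, 5.88 to 6.72 in NU-DHL-1, 8.42 to 8.86 in OCI-Ly7, 5.06 to 6.83 in RIVA and 6.92 to 9.47 in U2932. Treated and untreated arrays of different lines overlapped, but each line was higher with the drug. The difference was 1.45 ± 0.32 (n = 5; limma adjusted p = 0.0151); it lost its call without RIVA (adjusted p = 0.0599) or U2932 (adjusted p = 0.0532). At 48 h HOXC6 went from 4.38 to 9.13 in RIVA and from 7.02 to 9.82 in U2932, a difference of 3.77 (adjusted p = 0.00329). HOXC5, the next gene, rose by 0.97 ± 0.24 at 12 h (adjusted p = 0.0207; called in none of the fits without OCI-Ly7, RIVA or U2932) and by 2.90 at 48 h (adjusted p = 0.00654), from 5.75 to 8.99 in RIVA and from 6.06 to 8.62 in U2932. HOXC8 rose by 0.83 at 12 h, in 5 of 5 lines, and differed by 0.67 at 48 h without a call. HOXC10 and HOXC13, called at 12 h (0.59 and 0.45), were also called at 48 h (1.18 and 1.06), HOXC9 was called at 48 h only (1.07), and HOXC11 at 12 h only (0.72). The 12 h calls of HOXC11 and HOXC13 were lost when any 1 of FARAGE, OCI-Ly7, RIVA or U2932 was left out, and that of HOXC10 without FARAGE, RIVA or U2932.

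HOXC4, the brightest of the 66 without the drug, went the other way in 4 of 5 lines at 12 h. It went from 7.65 to 6.45 in FARAGE, 8.73 to 9.14 in NU-DHL-1, 8.58 to 8.11 in OCI-Ly7, 7.79 to 6.76 in RIVA and 7.89 to 7.76 in U2932. The difference of -0.48 (SE 0.29; adjusted p = 0.201) was not called, nor was that of -0.69 at 48 h (adjusted p = 0.41), and both lie at the middle of genes of like level (percentiles 50 and 44.7). HOXC4 and HOXC5 have the same RefSeq start region, chr12:54016638-54016937 on the plus strand. It is shown because the array values of these genes moved apart although their listed start is shared, and it held 2 CCAAT matches.
HOXC4 and HOXC5: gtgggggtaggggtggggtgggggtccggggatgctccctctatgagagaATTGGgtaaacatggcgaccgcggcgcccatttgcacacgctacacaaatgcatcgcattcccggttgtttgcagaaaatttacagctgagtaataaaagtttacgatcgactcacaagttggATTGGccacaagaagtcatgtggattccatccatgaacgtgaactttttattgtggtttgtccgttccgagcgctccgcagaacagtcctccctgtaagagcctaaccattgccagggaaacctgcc

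The HOXD cluster and HOXA2 moved less. At 12 h 3 of 8 HOXD genes rose, HOXD9 by 0.64, HOXD10 by 0.53 and HOXD1 by 0.53, beside 18.2% of all genes. All 3 lost the call without OCI-Ly7, RIVA or U2932, and HOXD9 also without FARAGE. At 48 h 1 was called, HOXD8, at 1.11 (0.78 in RIVA, 1.43 in U2932). HOXD4 was called at neither time, nor were HOXD11, HOXD12 and HOXD13, which pattern the limbs and hindmost body. HOXA2 differed by 0.30 at 12 h without a call. Over all 28 HOX genes, 13 rose at 12 h (18.2% of all genes did) and 9 at 48 h (5.66%).

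Of the remaining families, IRX5 gave the largest difference at 12 h. IRX5, an Iroquois gene of heart and retina, went from 3.79 to 5.44 in FARAGE, 4.15 to 7.76 in NU-DHL-1, 6.99 to 7.50 in OCI-Ly7, 5.81 to 7.37 in RIVA and 5.50 to 6.83 in U2932. NU-DHL-1 gained most and OCI-Ly7, the highest line without the drug, least. The difference was 1.73 ± 0.39 (n = 5; limma adjusted p = 0.0155), and it was 1.66 at 48 h (adjusted p = 0.0486). The other 4 IRX genes were called at neither time. PITX3, needed for midbrain dopamine neurons and the lens, rose by 1.00 ± 0.19 (adjusted p = 0.00887), from between 5.25 and 5.82 to between 6.09 and 6.84, with no overlap. At 48 h its difference was 2.10 in RIVA and 0.40 in U2932 and was not called.

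PITX1 showed no common direction at 12 h and then rose in RIVA. Its differences at 12 h were 0.38 in FARAGE, -1.53 in NU-DHL-1, -0.38 in OCI-Ly7, 1.04 in RIVA and -0.51 in U2932. At 48 h it went from 6.55 to 10.56 in RIVA and from 8.20 to 8.95 in U2932, a mean of 2.37 (limma adjusted p = 0.0408; 0.0537 when fitted among all probe sets). Among NKX genes, which pattern the heart, gut, lung and neural tube, 4 of 10 rose at 12 h, beside 18.2% of all genes. These were NKX6-2 (0.84), the heart gene NKX2-5 (0.77; no call without OCI-Ly7, RIVA or U2932), the thyroid and lung gene NKX2-1 (0.72; no call without RIVA) and NKX2-2 (0.39; no call without FARAGE, OCI-Ly7 or RIVA). NKX6-2 was within 0.68 and 0.94 in all 5 lines, and at 48 h it was 0.90 higher in RIVA and 0.91 in U2932 without a call. LHX3 and LHX1, LIM-homeobox genes of pituitary and kidney, rose at 12 h (0.67 and 0.51), and LHX1 and LHX2 at 48 h (1.57 and 1.47). The 12 h call of LHX1 was lost without any 1 of FARAGE, OCI-Ly7, RIVA or U2932. At 48 h RIVA gained more than U2932 in both, 2.48 against 0.66 for LHX1 and 2.41 against 0.52 for LHX2. MSX1 and MSX2, which respond to BMP signals in tooth and skull, were not called at 12 h (0.69 and 0.11) or 48 h (1.07 and 0.18).

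Most of these differences were seen at 12 h and not yet at 2 h. At 2 h the median difference of the 66 was 0.03, beside 0.02 for all genes. By limma 1 member was called higher and 0 lower, beside 4.03% and 6.38% of all genes. At an unadjusted p below 0.05 there were 4 members, beside 4603 of all 19775 genes. There 0 members were called at 2-fold or more, beside 0.091% of all genes, and 0 had every treated array above every untreated one, beside 0.121%. When the effect at 12 h was set against that at 2 h in the 5 lines that had both, 17 members had a larger effect at 12 h and 0 a smaller one (limma), beside 9.29% and 12.6% of all genes. The difference was 3.68 for DLX2, 2.41 for HOXB7, 2.04 for SIX4 and 1.62 for IRX5. Of those 17, 16 were also called higher at 12 h.

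At 48 h 18 members rose and 0 fell (limma; 34 higher and 0 lower at an unadjusted p below 0.05), beside 5.66% of all genes called higher and 8.28% called lower. All 18 were at least 2-fold higher, beside 5.12% of all genes. With 2 lines the p rests mostly on variance borrowed from other genes. A total of 10 members were called at both times, which is 38.5% of the 12 h calls and 55.6% of the 48 h calls, and 32 were called at neither. The median difference of the 66 was 0.73, beside 0.17 for all genes. In RIVA 53 of the 66 differences were larger at 48 h than at 12 h and in U2932 34 were, with 28 larger in both. The share of all genes larger at 48 h is not given. The median of the members went from 0.60 at 12 h to 0.88 at 48 h in RIVA and from 0.43 to 0.53 in U2932. That of other genes in the 3 lower quartiles went from 0.28 to 0.37 in RIVA and from 0.25 to 0.18 in U2932. On the poly-A scale 2 members stayed higher at 48 h (DLX2 and HOXB7) and 59 were lower, beside 27 and 19237 of all genes.

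The lines differed in how many members rose. Counting members at least 2-fold higher than the untreated array at 12 h, which has no test because a line has 1 array, FARAGE had 14 (21.2% of the 66, beside 9.99% of all genes) and U2932 14 (21.2%, beside 6.7%). RIVA had 13 (19.7%, beside 8.05%), whereas NU-DHL-1 and OCI-Ly7 had 4 each (6.06%, beside 6.35% and 6.44%). In NU-DHL-1 and OCI-Ly7 the share of members was therefore close to that of all genes. At 2 h 1 member passed in OCI-Ly7 (1.52%, beside 0.131%) and 1 in RIVA (1.52%, beside 0.389%). At 48 h RIVA had 27 (40.9%, beside 15.5%) and U2932 11 (16.7%, beside 8.13%). The treated RIVA array at 48 h also shifted more in its controls. Its hybridization controls read 12.6 against 10.7 untreated, beside 11.8 against 10.8 in U2932. The log2 signal ratio between the 3' and 5' probe sets of ACTB was 3.08 against 2.04, beside 0.591 against 0.2 in U2932. The part of this in the difference between the 2 lines was not tested. Across the 5 lines at 12 h, DLX2, SIX4 and HOXB7 were at least 2-fold higher in all 5, IRX5 in 4, HOXC6 and PITX3 in 3, 5 members in 2 and 14 in 1 line, and 41 in none.

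**Figure D2:**
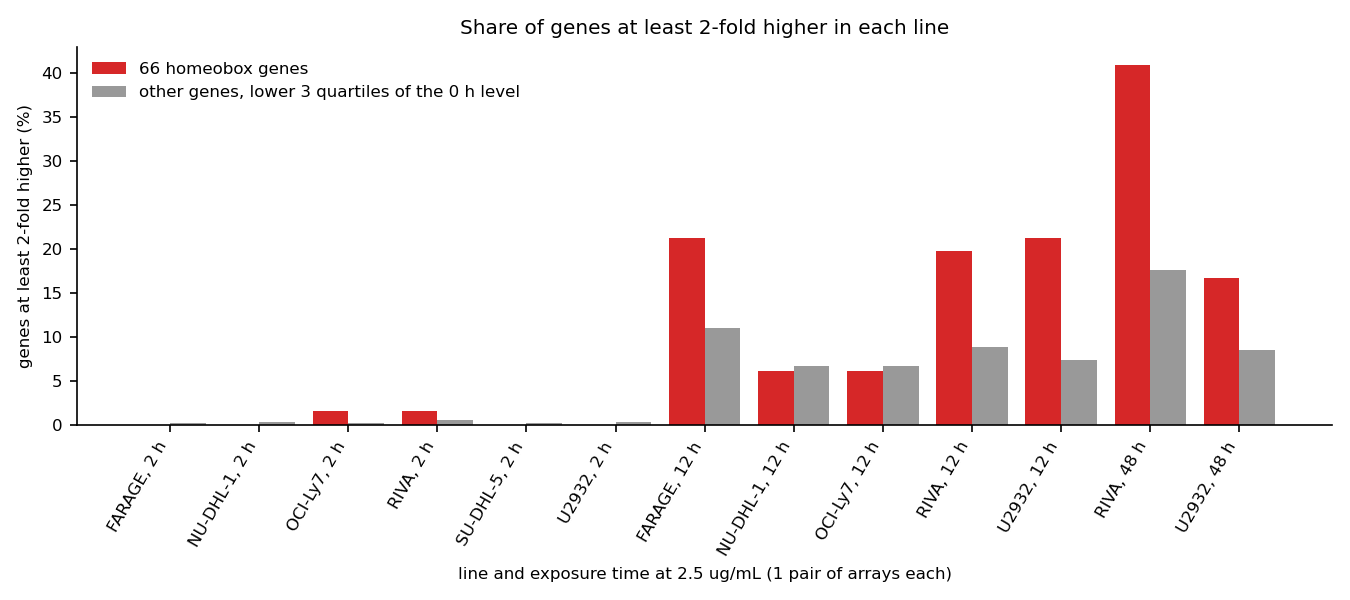
Share of genes at least 2-fold higher at 2.5 µg/mL than in the matched untreated array (%), for the 66 homeobox genes (red) and the other genes of the 3 lower quartiles of untreated level (grey), for each line and time. Red stands above grey in FARAGE, RIVA and U2932 at 12 h and in RIVA and U2932 at 48 h, and not in NU-DHL-1 or OCI-Ly7 at 12 h; at 2 h it stands above grey, by 1 member each, in OCI-Ly7 and RIVA.

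Genes at low untreated level drifted up on the deposited scale at the high dose, with medians at 12 h of 0.25, 0.41, -0.07 and -0.39 for non-members of the 4 quartiles from low to high level, so the members were set beside other genes of like untreated level. In the lowest quartile 7 of 30 members rose at 12 h (23.3%), beside 20.3% of the other genes there. In the next quartile it was 13 of 25 (52%) beside 30%, and in the third 6 of 11 (54.5%) beside 12.8%. At 48 h the shares were 26.7% beside 8.49%, 20% beside 6.08% and 45.5% beside 4.89%. The third quartile runs from 5.76 to 8.39 and several of its members lay near the lower end, so it is a coarse match of level. Among the dimmest genes at 12 h the members' share was thus near that of the rest. When the drift of genes of like level was subtracted from each treated array, 5 members were called higher at 12 h. Their share of the 66 was close to the 6.84% of all genes called higher on this scale. They were DLX2 (4.21), HOXB7 (2.65), SIX4 (2.18), HOXC6 (1.34) and PITX3 (0.65). At 48 h 5 were called on this scale, DLX2, HOXB7, HOXC6, HOXC5 and SIX4, beside 2.99% of all genes. At 2 h DLX2 was, beside 4.23%. IRX5 kept a difference of 1.33 at 12 h but not its call (limma adjusted p = 0.0709). At 12 h 13 members had every treated array above every untreated one, beside 8.79% of all genes, and at 48 h, with 2 lines, 49 had, beside 34.7%.

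**Figure D3:**
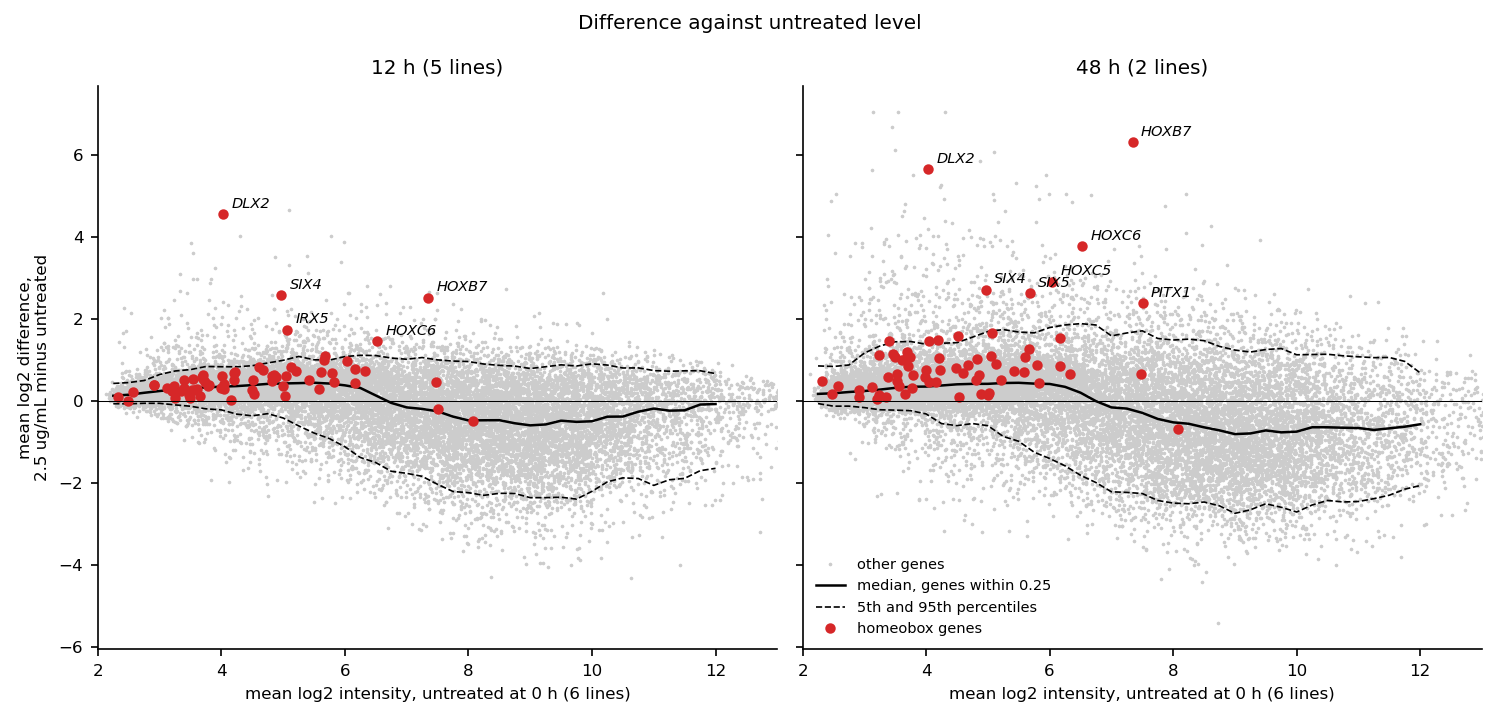
Mean log2 difference at 2.5 µg/mL against the mean untreated level at 0 h, at 12 h (5 lines, left) and 48 h (2 lines, right), with homeobox genes in red and other genes in grey. The solid line is the median and the broken lines the 5th and 95th percentiles of other genes within 0.25 of each level; most red points lie within the band on the left, and DLX2, HOXB7 and SIX4 lie above it on both sides.

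Other probe sets of the same genes changed the picture for some members. The 66 genes have 107 single-gene probe sets, and 31 genes have more than 1. At 12 h 37 of the 41 probe sets that were not the brightest had the sign of the brightest, and those of 4 genes differed by 1 or more. LHX2, a gene of forebrain and eye, differed by 0.52 at 12 h by its brightest probe set without a call. Its other probe set was 1.34 higher at 12 h (limma over probe sets, adjusted p = 0.0301), and at 48 h it went from 3.40 to 9.91 in RIVA and from 2.63 to 4.83 in U2932. One probe set of LHX4 was 1.16 higher at 12 h and 2.45 at 48 h (adjusted p = 0.034), from 4.11 to 8.20 in RIVA and 4.16 to 4.97 in U2932, while its other 2 were not called. One of MSX1 was 2.36 higher at 48 h (adjusted p = 0.0065). A gene called by any of its probe sets was found 27 times at 12 h and 16 times at 48 h, when fitted among all 41097 probe sets. The share of all genes called in this way is not given, and a gene with more probe sets has more chances to be called. The probe sets named here were chosen for mention after their values were seen.

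**Figure D4:**
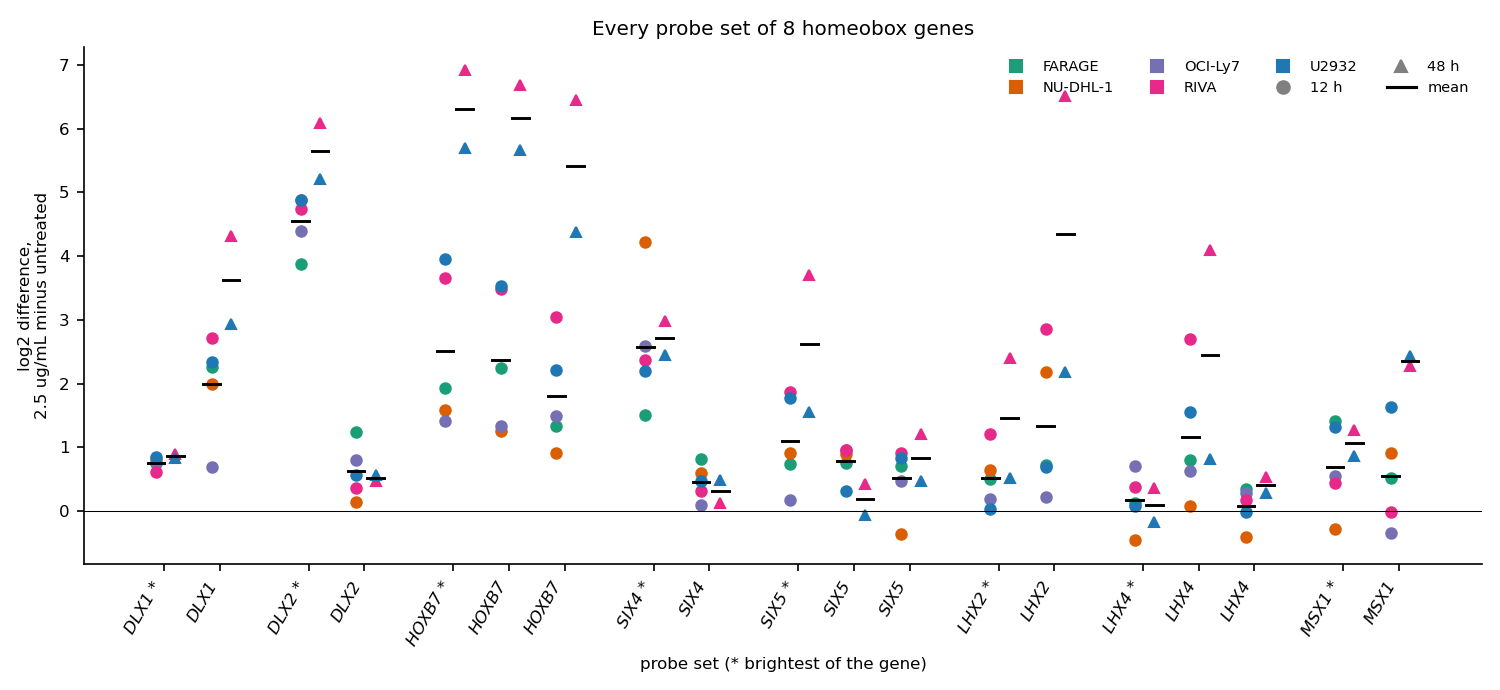
Log2 difference at 2.5 µg/mL for every single-gene probe set of 8 members, with 12 h as circles and 48 h as triangles, 1 colour per line and the mean as a bar. The 3 probe sets of HOXB7 lie together, whereas those of DLX1, DLX2, SIX4, LHX2 and LHX4 do not; the star marks the brightest, which stands for the gene elsewhere.

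No change of these genes was detected at the low dose. At 0.00061 µg/mL 0 members were called at 2, 12 and 48 h (limma), as were 0 of all 19775 genes (0%). At an unadjusted p below 0.05 there were 1, 3 and 5 members, beside 809, 1481 and 1465 of all genes. The differences of the 66 ran from -0.34 to 0.18 at 2 h, -0.19 to 0.22 at 12 h and -0.37 to 0.32 at 48 h. At 12 h of the low dose DLX2 read 4.92 in NU-DHL-1, 4.29 in RIVA, 3.76 in SU-DHL-5, 3.69 in FARAGE, 3.46 in U2932 and 3.15 in OCI-Ly7. These values overlap the untreated ones, which the high dose comparison shares. Time in culture without the drug also gave 0 calls among members at 2, 12 and 48 h against 0 h (limma). Of all genes, 0.172%, 0.0152% and 0% were called higher and 0.45%, 0% and 0% lower. At an unadjusted p below 0.05 there were 3, 10 and 1 members, beside 2835, 2049 and 2552 of all genes.

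Genes that work with homeobox factors, or that hold them silent, were read from lists on the deposited scale. Of 10 TALE cofactors (PBX, MEIS, PKNOX and TGIF genes, whose products bind DNA beside HOX proteins), 1 rose at 12 h, MEIS3 (0.78), and none was called lower, beside 18.2% and 14.7% of all genes. At 2 h 3 of them had fallen, beside 6.38% of all genes: TGIF1 by 0.91, PBX3 by 0.37 and MEIS2 by 0.37. Of 55 other homeobox genes 19 rose and 2 fell at 12 h, beside 18.2% and 14.7% of all genes, with a median of 0.41 beside 0.20 for all genes. The falls were POU2F2, the B-cell octamer factor (by 2.25), and CUX1 (by 1.10), and the rises included PRRX2 (0.96) and CDX2 (0.64).

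Polycomb genes, whose products silence developmental genes, fell more often than they rose: of 29 measured, 1 rose and 8 fell at 12 h, beside 18.2% and 14.7% of all genes. AEBP2, a cofactor of the histone H3K27 methylase complex, fell by 4.01 ± 0.58 (adjusted p = 0.00361), BCOR by 2.50, PCGF3 by 2.27 and KDM2B by 1.44. The other 20 were not called at 12 h, among them EZH2 (0.02), SUZ12 (-0.51), EED (-1.21) and RING1 (-0.22). At 2 h 7 Polycomb genes had already fallen and 1 had risen, with BCOR down by 0.70 and PCGF3 by 0.46, beside 6.38% of all genes lower and 4.03% higher. At 48 h 5 had fallen and 1, PCGF2, had risen (2.88), beside 8.28% and 5.66%. Of 19 Trithorax, MLL and H3K27 demethylase genes, which oppose that silencing, 7 fell and 1 rose at 12 h, beside 14.7% and 18.2% of all genes. KMT2C fell by 2.06, DOT1L by 1.18, WDR5 by 1.15 and MLLT3 by 1.06, and the demethylase KDM6B rose by 0.80. The untreated levels of the Polycomb and Trithorax genes called at 12 h ran from 7.1 (MLLT3) to 10.6 (MTF2), in the upper quartiles, where the medians of non-members were below 0. When only genes above the median level were tested, 2834 were called lower and 1262 higher at 12 h. Falls thus outnumbered rises among bright genes at large, and the shares of all genes given here are not matched for level.

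Of 21 partners of sine oculis, DLX and MSX proteins and upstream signals, 4 rose and 1 fell at 12 h, close to or below the 18.2% and 14.7% of all genes. CYP26A1, which degrades retinoic acid and is itself induced by it, rose by 1.89 ± 0.34 (adjusted p = 0.00722) and by 3.25 at 48 h. BMP2 rose by 0.65, the retinoic acid receptor gene RARG by 0.60 and SHH by 0.51, and SMAD4 fell by 2.11. ID1, a BMP target, was 1.84 higher at 12 h without a call (adjusted p = 0.0549) and rose by 4.92 at 48 h.

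Most markers of other cell types lay in the lower 2 quartiles of untreated level, except TUBB3 (11.6), COL1A1 (7.31), HBB (6.23), DCN (6.04) and AHSP (6.01). At 12 h 2 of 6 T-cell, 2 of 5 myeloid, 3 of 6 epithelial, 4 of 7 neural, 1 of 3 erythroid and 0 of 6 fibroblast markers were called higher, and 5 of 6 B-cell markers were called lower, beside 18.2% of all genes called higher and 14.7% called lower. The myeloid marker CD14 rose by 1.69, and the others that rose did so by less than 1. The log2 of the summed linear T-cell markers was 7.34 to 7.62 on untreated arrays at 12 h and 7.59 to 8.35 at the high dose, and that of B-cell markers 13.7 to 14.5 and 13.1 to 13.9. The signal ratio between the 3' and 5' probe sets of ACTB, a measure of RNA integrity, was 0.27 higher (SD 0.27, n = 5) at 12 h and 0.72 higher (n = 2) at 48 h on the log2 scale, and that of GAPDH 0.06 and 0.25 higher. The part of these shifts in the homeobox values was not tested.

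The members share features of sequence that the choice by symbol did not use. They are short: the median span of a member in the RefSeq annotation was 4.49 kb, beside 23.1 kb for other genes of the 3 lower quartiles. Among those other genes, the ones called higher at 12 h had a median of 15.7 kb and the ones called lower 39.8 kb. Members called at 12 h had a median of 4.08 kb and members not called 5.4 kb. RefSeq promoters were found for 37 members. The 15 of these that rose at 12 or 48 h had 19 promoters, with medians of 69% G and C and 10 CG dinucleotides per 100 bases. The medians were 62.8% and 8 for the 28 promoters of the other 22, and 58.7% and 4.67 for all promoters. A gene with several promoters counts several times, and the region shared by HOXC4 and HOXC5 counts in both groups. CCAAT stood in 63.2%, 57.1% and 34.6% of the promoters of these groups, and the AP-1 letters in 10.5% (2 promoters), 0% and 4.95%. TATAAA stood in 5.26%, 10.7% and 11.5%, and the CRE letters TGACGTCA in 5.26%, 3.57% and 1.85%, all on either strand. The promoters of HOXB7, IRX5, HOXC6 and SIX5 were not in the table.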

How the data were processed

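RNA of 6 lymphoma lines was measured on 49 Affymetrix arrays. The authors deposited log2 intensities per probe set, made with RMA (background correction, quantile normalization and summary per probe set) with the affy package (R 3.0.2), both named per the submitters' processing notes; quantile normalization gives every array the same distribution, so differences are relative to other transcripts. Of 54675 probe sets, 41097 listed 1 gene in the platform annotation, which gave 19775 genes, each by its brightest probe set; 1801 listed several genes and 11777 none, and 3 that list HOXD3 and HOXD4 together were not used. Array medians ran from 4.84 to 5.04. An array gives no count, so the number of arrays limits precision.

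Treated and untreated arrays of the same line and time were compared using R 4.3.3 and its package limma 3.58.1, with line as a block and a trend in the prior variance, and Benjamini-Hochberg adjustment over all genes. Time effects were fitted on each line's own difference. The line pairs the samples, since both arrays come from the same line. The method was tested on simulated data. Genes of like level lay within 0.25 of the untreated 0 h mean, and their drift was subtracted by a loess of span 0.3. Named members were the up to 12 called higher at 12 h with the same sign in every line, up to 6 called at 2 h and at 48 h, the 6 with the highest level, and DLX2; up to 4 genes of each list were named by the smallest adjusted p. The members and lists were chosen with earlier results of these data known. Alternatives were other scalings, probe set rules, filters and fits, other controls and leaving out each line. Correlations between arrays ran from 0.7926 to 0.9974, and 0 were identical. No batch is named in the sources used here.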

Additional observations from a re-analysis of the deposited data

Results flagged for a closer look

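DLX2 at 2 h of the high dose stood apart in 1 line: OCI-Ly7 was 1.31 higher than its untreated array, while the next line was 0.83 higher and the lowest 0.56. Chance marks about 1 in 20 groups in this way, and 1 of 17 groups examined was marked.

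The effect of the high dose differed between 12 h and 2 h, by a limma test of that difference in the 5 lines with both times, for 11 of the 16 named members examined. Most of these were named because they were called higher at 12 h, so the count follows largely from that choice. Of all genes 9.29% had a larger and 12.6% a smaller effect at 12 h. The effect at 12 h exceeded that at 2 h by 3.68 for DLX2 (adjusted p = 0.000849), 2.41 for HOXB7, 2.04 for SIX4, 1.62 for IRX5, 1.23 for HOXC6, 1.09 for SIX5, 0.98 for HOXC5, 0.95 for DLX1, 0.80 for PITX3, 0.77 for HOXC8 and 0.57 for NKX6-2 (adjusted p = 0.0497). Each was larger at 12 h on the deposited scale.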

How the results depend on the processing

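Over 320 alternative values of the named members, 241 kept their direction and their side of the threshold, 58 kept the direction and lost the call, 5 gained a call and 16 changed sign. Scaling to the poly-A controls turned IRX5 (-0.0516), HOXC6 (-0.33), SIX5 (-0.69), PITX3 (-0.78), HOXC5 (-0.81), NKX6-2 (-0.95), HOXC8 (-0.96), NKX2-5 (-1.02), DLX1 (-1.02), HOXC11 (-1.06) and HOXB4 (-1.32) at 12 h, and HOXC5 (-0.34), SIX4 (-0.53) and SIX5 (-0.61) at 48 h; the hybridization controls turned HOXB4 (-0.19) at 12 h, PITX1 at 12 h was -1.99 on the poly-A and -0.86 on the hybridization scale, and leaving out 1 line at a time it ran from -0.511 to 0.13, the latter without NU-DHL-1.

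Of the 26 members higher at 12 h and 18 at 48 h, 1 and 2 were higher on the poly-A scale (60 and 59 lower), 4 and 3 on the hybridization scale (3 and 1 lower), 5 and 5 against genes of like level, 8 and 7 with only genes above the median level tested (which leaves 13 members), 14 and 0 with no replicate block, and 47 and 48 when every array entered 1 model (1 and 1 lower). The shares of all genes called higher moved too. They were 0.162% and 0.137% on the poly-A scale, 1.04% and 0.582% on the hybridization scale and 6.84% and 2.99% against like level. Above the median level they were 12.8% and 5.93%, with no replicate block 7.63% and 0%, and in 1 model 42.1% and 31.7%. Of all genes, 19106 and 19237 were called lower on the poly-A scale and 6839 and 5294 on the hybridization scale. In 1 model 4784 and 4798 were called lower. At 48 h 9 were higher on median-centred arrays (beside 3.81% of all genes) and 2 without the variance trend (0.0455%). At 12 h 7 were at least 2-fold (3.15%). At 2 h the count of 1 higher became 0 at 2-fold, above the median level or with no replicate block. Members lower became 20 on the poly-A scale and 1 against the low dose, beside 7548 and 1185 of all genes. Of the 17 time differences, 6 were at least 2-fold. Members with a called time difference in either direction numbered 9 on median-centred arrays, 58 on the poly-A scale and 7 on the hybridization scale. Against like level they numbered 5 and above the median level 6. The shares of all genes in these fits are not given, so these counts are not shown to be particular to the members. On the poly-A scale 10 members were called at 12 h of the low dose and 2, 6 and 23 in untreated cells at 2, 12 and 48 h. The shares of all genes are not given here either, so these calls are not shown to be particular to the members. The cause of the calls was not tested.

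Leaving out 1 line, members higher at 12 h ran from 11 (without RIVA) to 34 (without NU-DHL-1), with 15 without OCI-Ly7, 14 without U2932 and 0 lower. The share of all genes called higher ran from 4.41% to 25.4% in the same fits. The time differences ran from 5 (without RIVA or U2932) to 21, with 8 without OCI-Ly7. For these the share of all genes is not given. Members at 2 h ran from 1 to 2 higher (2 without SU-DHL-5, SIX4 added, beside 2.58% of all genes). They ran from 0 to 1 lower (1 without FARAGE, beside 1027 of all genes). The low dose and untreated counts stayed at 0. At 48 h leaving out a line leaves no residual degree of freedom and so no test. DLX1, DLX2, DLX6, HOXB7, HOXB13, HOXC8, IRX5, LHX3, NKX6-2, PITX3 and SIX4 were called higher at 12 h in every fit that left out 1 line.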
